A study of Homo sapiens with 24 samples.

Results

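Long intergenic noncoding RNAs (lincRNAs) were examined in HepG2, an established human liver cancer line, across 24 RNA-seq libraries. They were chosen by symbol (LINC followed by 5 digits) and selected on their mean level in the 2 siControl libraries at 0 h, which had to be at least 1 CPM (counts per 1000000 reads assigned to genes). Of 2257 genes with such a symbol, 99 met this rule, out of 58721 gene rows in all, and 12571 genes of any kind reached the same level. The cells carried siControl (a negative control siRNA), siIGF2BP1, siIGF2BP2 or siIGF2BP3, and were collected at 0, 3 or 6 h of actinomycin D (5 μg per ml), a drug that blocks transcription. There were 2 replicates in each of the 12 groups. All cells were of 1 line and all had been transfected with an siRNA. The RNA was selected by poly(A) tails, so that transcripts without a tail were depleted. The study calls its replicates independent, without stating in the sources used here whether they were separate cultures. The p-values therefore measure the spread between these libraries, which may be in part technical.

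A lincRNA is a transcript of RNA polymerase II that comes from between protein-coding genes and is not known to be translated. Most are capped, spliced and polyadenylated like mRNA, but they are as a class less abundant than mRNA, are more often kept in the nucleus, and many are removed there by the RNA exosome. The LINC symbol is given to such genes when no function or neighbouring gene has lent them a name. IGF2BP1, IGF2BP2 and IGF2BP3 are related RNA-binding proteins with KH domains, mostly studied for their effect on the stability of mRNA, and several lincRNAs have been described as bound by them.

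Knockdown was checked first in the targeted transcripts. IGF2BP1 lay between 651 and 710 CPM in the 6 siControl libraries and between 102 and 148 CPM in the 6 siIGF2BP1 libraries, IGF2BP2 between 188 and 208 against 43.6 and 50.8 CPM in its own knockdown, and IGF2BP3 between 111 and 127 against 30.9 and 40.3 CPM. The transcript left at a time point was thus 15.9% to 20.9%, 21.5% to 26.1% and 25.1% to 35.4% of siControl, respectively. Depth ran from 31843504 to 74252494 gene reads, of which 10152 to 39491 (0.029% to 0.0532%) fell on the 99 lincRNAs. In these bulk samples, fewer cells and less RNA per cell cannot be told apart. Hepatocyte transcripts such as ALB, AFP, APOB and HNF4A were abundant in every library, and the blood markers PTPRC, CD3E and CD68 stayed at or below 0.127 CPM. The endothelial markers PECAM1, VWF and CDH5 reached at most 1.38 CPM, and of the fibroblast markers COL1A1 and COL1A2 stayed at or below 0.343 CPM, whereas PDGFRB ran from 4.70 to 13.0 CPM.

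By their medians, the lincRNAs were shorter and had fewer exons than tested protein-coding genes, but not than the other tested lncRNA genes. In GENCODE v44 on GRCh38, 94 of the 99 had a lncRNA record, with a median of 3 exons and 1888.5 bp in the canonical transcript. The medians were 9 exons and 3348 bp for tested protein-coding genes and 2 exons and 1553 bp for the other tested lncRNA genes. Of the 94, 17 (18.1%) were single-exon genes, against 1.8% of tested protein-coding genes and 28.7% of the other tested lncRNA genes. The other 5 (LINC00888, LINC00680, LINC00674, LINC01881 and LINC01145) carried identifiers that this release lists as transcribed pseudogenes, and their lengths were not used. Chromosome 1 held 13 of the lincRNAs and chromosome 7 held 12. In position, 51 overlapped a gene on the opposite strand and 31 a gene on the same strand, 38 overlapped none, 7 started within 1000 bp of a protein-coding gene transcribed the other way, and 16 lay within 10000 bp downstream of a protein-coding gene on the same strand. The strand and overlap settings of the counting are not given in the sources used here, so reads of overlapping neighbours cannot be told apart with certainty. Nor is the treatment of reads that map to several places given. The values of LINC01138 and LINC02802 on chromosome 1 and LINC01410 on chromosome 9, which lie in regions known for segmental duplication, are therefore uncertain. Sequence copies were not searched for, so the values of others among the 99, LINC02693 and LINC01002 included, may be uncertain too.

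Because the RNA was selected by its poly(A) tails, 3′ ends are given here as the last 60 bases of the canonical transcript. They are those of 4 of the 5 lincRNAs that were lost fastest and of the 3 that changed least. Capitals mark the last polyadenylation hexamer (AATAAA or ATTAAA, searched on the transcript strand in the last 50 bases).
LINC02119 (chr5:38184658-38184717, plus strand): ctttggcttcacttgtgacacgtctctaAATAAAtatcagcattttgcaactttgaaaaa
LINC01124 (chr2:170712451-170712510, minus strand): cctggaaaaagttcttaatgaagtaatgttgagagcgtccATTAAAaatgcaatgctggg
LINC01410 (chr9:62813427-62813486, plus strand): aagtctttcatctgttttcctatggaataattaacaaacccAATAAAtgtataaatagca
LINC02693 (chr17:21430966-21431025, minus strand): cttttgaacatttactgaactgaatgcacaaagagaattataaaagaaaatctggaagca
LINC02802 (chr1:144227029-144227088, minus strand): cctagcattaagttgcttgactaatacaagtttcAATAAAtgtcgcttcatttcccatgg
LINC00467 (chr1:211435274-211435333, plus strand): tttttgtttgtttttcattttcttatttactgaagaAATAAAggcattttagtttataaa
LINC01002 (chr19:209219-209278, minus strand): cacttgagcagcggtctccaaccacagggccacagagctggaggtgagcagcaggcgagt

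The sequences are of GRCh38 as annotated by GENCODE v44. Among all 94 lincRNAs with a lncRNA record, 56 (59.6%) had one there, against 81.9% of tested protein-coding genes and 53.1% of the other tested lncRNA genes. No match says only that these letters are absent from the window of that 1 transcript.

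At 0 h of actinomycin D the lincRNAs were low in level, and a few carried much of the signal. In siControl their mean CPM ran from 1.04 to 34.3 with a median of 2.92, against a median of 23.6 for all 13136 genes tested. A level of 10 CPM or more was seen for 13 of them, 19 lay between 5 and 10, 32 between 2 and 5, and 35 between 1 and 2. Together they summed to 532 CPM, 44.6% of it in the 12 highest. These levels set the rule, and are a description. Just inside the threshold were LINC01852 (1.10 CPM), LINC01909 (1.07 CPM) and LINC02413 (1.04 CPM), and just outside it were LINC02897 (0.991 CPM), LINC00852 (0.981 CPM) and LINC01186 (0.978 CPM).

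LINC00205, described in hepatocellular carcinoma, gave the most reads, with 35.2 and 33.4 CPM in the siControl libraries at 0 h. LINC00667 followed with 34.1 and 31.4 CPM, LINC02693 with 28.9 and 29.3 CPM, and LINC00511, an oncogenic lincRNA of several carcinomas, with 28.3 CPM in both. The neighbours LINC00205 and LINC00667 overlapped in their libraries, whereas LINC02693 lay just above LINC00511 in both. Next came LINC00963 (mean 20.8 CPM), which was first described in prostate cancer, LINC03037 (16.6 CPM), LINC00958 (16.6 CPM), LINC02609 (15.4 CPM), LINC00888 (11.3 CPM), LINC02575 (10.9 CPM), LINC00526 (10.8 CPM) and LINC02525 (10.5 CPM). Per kb of annotated exon the order was another, since LINC03037 has 1061 bp and LINC00667 10094 bp of exon: LINC03037 was highest at 15.7 CPM per kb, before LINC02525 (6.35), LINC00526 (5.77), LINC02365 (4.86) and LINC00205 (4.49). LINC00526 lies antisense to the start of LINC00667, and both were among the 12 highest.

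**Figure D1:**
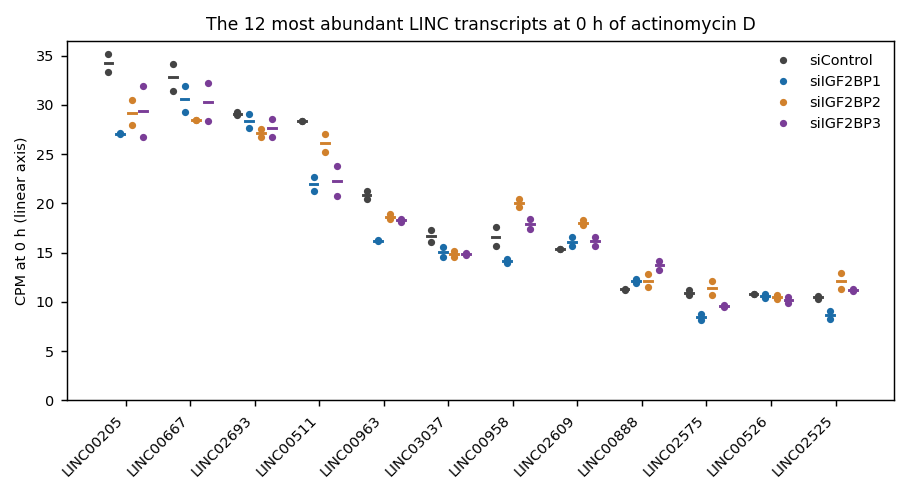
CPM at 0 h (linear vertical axis) of the 12 lincRNAs with the highest mean in siControl, with 1 point per library, a bar at the mean of 2 replicates and 1 colour per siRNA. LINC00205, LINC00511 and LINC00963 were lower in siIGF2BP1 than in siControl in both replicates, and LINC00958 was highest in siIGF2BP2.

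Differences between each knockdown and siControl at 0 h involve the libraries that chose the members and were therefore not tested. The median over the 99 lincRNAs was -0.10 (log2) in siIGF2BP1, -0.00 in siIGF2BP2 and -0.08 in siIGF2BP3, against 0.01, 0.02 and 0.00 over all genes. For siIGF2BP1, siIGF2BP2 and siIGF2BP3, 69, 50 and 62 of the 99 lay below siControl, where 47.5%, 45% and 48.8% of all genes did. More than 1 log2 below it were 5, 1 and 0 lincRNAs and 0.266%, 0.167% and 0.16% of all genes. The rule set a floor in siControl and none in the knockdowns, which by itself favours values below siControl near the threshold. The 5 in siIGF2BP1 (LINC02535, LINC02119, LINC02367, LINC01852 and LINC02413) had 1.04 to 1.38 CPM in siControl at 0 h. These shares are therefore not read as a trait of the lincRNAs.

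Most of the lincRNAs fell under actinomycin D, as most genes did. Decay was tested as the log2 change over 6 h, averaged over the 3 knockdowns, whose libraries had no part in choosing the members, and on a scale set by the ERCC synthetic RNA added to each sample. Of the 99 lincRNAs, 84 fell (edgeR, adjusted p under 0.05) and 0 rose, where 83.3% of all genes tested passed, 77.5% falling and 5.72% rising. The median change was -1.02 (log2), against -0.68 over all genes. By size, 19 fell by over 2 log2 (19.2%, against 16.6% of all genes), 52 by over 1 log2 (52.5% against 38.0%), and 23 stayed within 0.5 log2 of no change. These shares and medians compare sets that were filtered differently. The lincRNAs had to reach 1 CPM in siControl at 0 h, whereas all genes tested needed 1 CPM in any 2 libraries. Genes too low at 0 h for the first rule can enter only the set of all genes, here and in the other comparisons with it. On TMM scaling, which sets the typical transcript to no change and moves the median of all genes to -0.02, 54 lincRNAs fell relative to other transcripts and 18 rose (5750 and 5405 of the 13136 genes tested), with a median of -0.35. The 15 that did not pass the test had a median of 1.90 CPM at 0 h in siControl, against 3.19 CPM for the 84.

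**Figure D2:**
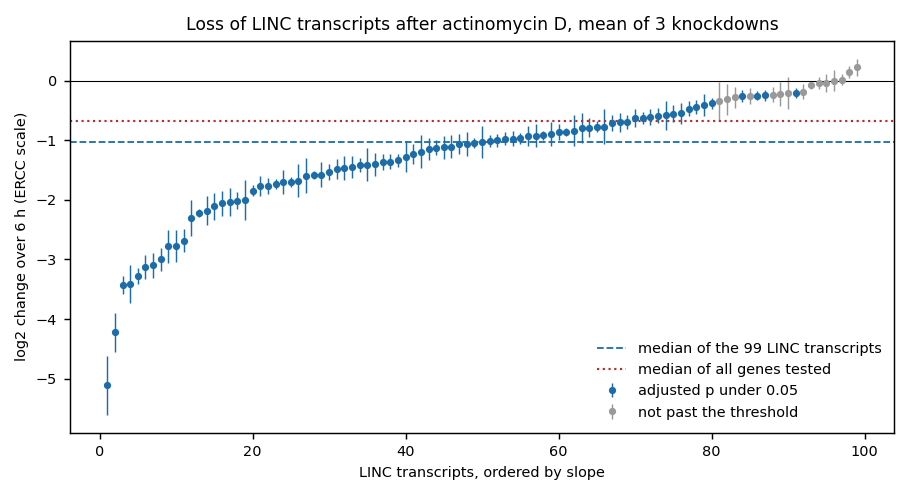
Log2 change over 6 h of actinomycin D on the ERCC scale, averaged over the 3 knockdowns, for each of the 99 lincRNAs in order (points, estimate; bars, SE; blue, adjusted p under 0.05). The values run from -5.11 to 0.22, and the median of the lincRNAs (-1.02) lies below that of all genes (-0.68).

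LINC02119, a gene of chromosome 5, was lost fastest. Its CPM at 0 h was 0.635 and 0.511 in siIGF2BP1, 1.21 and 1.18 in siIGF2BP2, and 1.30 and 1.37 in siIGF2BP3, and at 6 h it was 0.052 and 0, 0.075 and 0.109, and 0.027 and 0.094 CPM, from 0 to 6 reads per library. The groups did not overlap in any condition, and the slope was -5.11 (SE 0.49, edgeR adjusted p 1.79e-09). LINC01004, which lies antisense within KMT2E, fell to 5.5% ± 2.3, 4.4% ± 0.2 and 9.1% ± 3.6 of its 0 h level in the siIGF2BP1, siIGF2BP2 and siIGF2BP3 cells at 6 h (SD, n = 2), with a slope of -4.23 (SE 0.33, edgeR adjusted p 6.24e-11). In siControl 23.1% ± 0.8 of it was left at 6 h, so its place among the steepest rests on the knockdowns. The difference from siControl in this share was not tested. LINC01410 fell by 3.41 (SE 0.31), from 63 to 112 reads at 0 h to 4 to 15 reads at 6 h. These 3 transcripts rest on few reads once they have fallen, and their late values are imprecise.

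LINC02693 and LINC01124 fell by over 3 log2 from higher levels. LINC02693 went in siIGF2BP1 from 29.1 and 27.6 CPM at 0 h to 7.83 and 8.03 CPM at 3 h and 4.28 and 4.55 CPM at 6 h. In the other two knockdowns 10.1% ± 0.4 and 9.6% ± 2.0 of its 0 h level was left at 6 h (SD, n = 2), and the slope was -3.28 (SE 0.13, edgeR adjusted p 2.69e-16). LINC01124, a single-exon gene that starts 770 bp from SP5, fell by 3.43 (SE 0.15), with 7.8% ± 1.2, 10.6% ± 2.7 and 9.4% ± 1.0 left at 6 h. In each of these cases the 3 h libraries lay between those of 0 h and 6 h.

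At the other end, LINC02802, LINC00467 and LINC01002 showed no loss that could be detected over the 3 knockdowns. LINC00467, described as a gene repressed by N-Myc, had 6.11 and 7.39 CPM at 0 h and 10.5 and 8.99 CPM at 6 h in siIGF2BP1, 9.72 and 8.90 against 9.96 and 9.41 CPM in siIGF2BP2, and 6.47 and 7.61 against 9.76 and 11.3 CPM in siIGF2BP3. CPM is relative to all other transcripts, and on the ERCC scale the slope was 0.02 (SE 0.09, edgeR adjusted p 0.873). This averages a slope of -0.34 for siIGF2BP2 with slopes of 0.16 and 0.23 for siIGF2BP1 and siIGF2BP3, with 78.9% ± 4.6 of LINC00467 left at 6 h in siIGF2BP2 (SD, n = 2). The slopes of LINC02802 (-0.00, SE 0.18) and LINC01002 (-0.04, SE 0.15) were no larger than their errors. They too average unlike values, although no slope difference between knockdowns was called. At 6 h 134.7% ± 4.3, 80.8% ± 5.6 and 94.0% ± 18.7 of LINC02802 was left in siIGF2BP1, siIGF2BP2 and siIGF2BP3 (SD, n = 2). For LINC01002 it was 105.7% ± 7.1, 81.2% ± 3.0 and 107.6% ± 8.6. Of the 12 most abundant, LINC02609 (-0.07, SE 0.07) did not pass the test either, while LINC00888 (-0.25) and LINC00667 (-0.86) fell slowly and LINC00511 (-2.22), LINC00526 (-1.85), LINC02575 (-1.74), LINC03037 (-1.71) and LINC00205 (-1.59) fell faster than the median lincRNA. On TMM scaling LINC00888 was higher by 0.41 rather than lower.

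**Figure D3:**
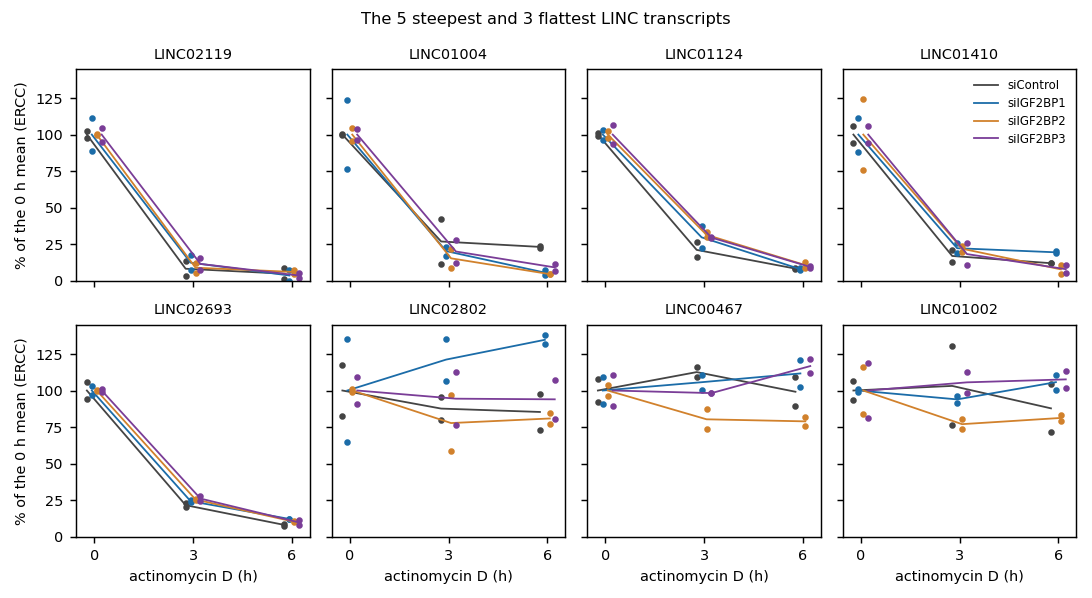
ERCC-scaled level as a percentage of the 0 h mean of the same condition (vertical axis) against hours of actinomycin D, for the 5 steepest and the 3 flattest lincRNAs (points, libraries; lines, means of 2 replicates; colours, siRNA). LINC02693 ended between 7.27% and 12.4% in every library, whereas LINC00467 ended between 75.6% and 122%.

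Lifetimes were put on a time scale with the first-order decay formula of the study, from the mean of the rates over 3 h and 6 h. With siControl the lincRNAs had a median of 4.18 h ± 0.731 (SD of the medians of 2 replicates), with a median of 5.90 h over all genes. For siIGF2BP1 these medians were 4.92 h ± 0.074 and 6.51 h, for siIGF2BP2 4.93 h ± 0.027 and 6.21 h, and for siIGF2BP3 4.71 h ± 0.367 and 6.61 h. LINC02119 had 1.03 to 1.10 h in the 4 conditions and LINC02693 had 1.48 to 1.68 h. LINC00205 had 3.28 to 3.79 h. In siControl 12 lincRNAs had under 2 h and 14 had over 12 h, and 3 had no fall from which to compute a value. Such lincRNAs are left out of the medians, and numbered 7 for siIGF2BP1, 3 for siIGF2BP2 and 12 for siIGF2BP3, so that the medians rest on different members. Differences between siControl and the knockdowns were not tested, since the siControl values rest on the libraries that chose the members.

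In siControl the later interval was tested, whose libraries were not used by the rule, and fewer of the lincRNAs than of all genes passed. Between 3 h and 6 h the median change of the lincRNAs was -0.44 (log2), against -0.42 over all genes. Of the 99, 39 fell and 0 rose (edgeR, adjusted p under 0.05), where 65% of all genes passed and 64.9% fell. Of the 39, 38 had also fallen in the knockdowns, where 84 of the 99 and 77.5% of all genes fell. The median level at 0 h was 5.88 CPM for those 39 and 2.08 CPM for the others. On TMM scaling 15 fell and 5 rose (3280 and 2904 of the 13136 genes tested). The largest late falls were those of LINC02983, with 0.884 and 0.574 CPM at 3 h and 0.333 and 0.112 CPM at 6 h (-1.94, SE 0.48, edgeR adjusted p 0.000156), and of LINC01234, a lincRNA described in gastric cancer, with 1.62 and 1.27 CPM against 0.665 and 0.486 CPM (-1.60, SE 0.32, adjusted p 2.6e-06). Neither pair of groups overlapped. LINC01547 (-1.43, SE 0.63, adjusted p 0.0354) lost its call without siControl 3 h replicate 1 (-1.09) or siControl 6 h replicate 2 (-1.11). LINC02983 overlaps LINC03073, another of the 99, on the opposite strand.

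Whether the knockdowns differed in the rate of loss was tested between knockdowns. No lincRNA passed edgeR's test between siIGF2BP2 and siIGF2BP1, siIGF2BP3 and siIGF2BP1, or siIGF2BP3 and siIGF2BP2, and 0% of all genes did. DESeq2 called 0 lincRNAs as well. The median slope difference was 0.01, 0.11 and 0.08 (log2 over 6 h). The change between 3 h and 6 h was likewise compared with siControl. Here 0 lincRNAs passed in siIGF2BP1, siIGF2BP2 or siIGF2BP3, and DESeq2 called 0. Of all genes, 0.0685% passed in the first (0.0533% higher and 0.0152% lower), and 0.19% and 0.0228% in the others. Without siIGF2BP2 6 h replicate 1, 4 passed in siIGF2BP2. Slopes over all 3 time points in siControl used the libraries of the rule, and are given without a test: the median was -1.23 for siControl (-0.89 over all genes), -1.13 for siIGF2BP1 (-0.69), -1.06 for siIGF2BP2 (-0.71) and -0.96 for siIGF2BP3 (-0.66).

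The level of the lincRNAs after transcription had been blocked was compared between each knockdown and siControl as the mean of 3 h and 6 h, on TMM scaling. The 3 comparisons share the 4 siControl libraries of those times. Of the lincRNAs called, 23 of 25 in siIGF2BP1, 11 of 12 in siIGF2BP2 and 5 of 8 in siIGF2BP3 had the same sign at 0 h. The siControl libraries at 0 h chose the members, which favours negative signs there. The share among all genes called is not given here. In siIGF2BP1 at 0 h, LINC00205 was at -0.32, LINC02525 at -0.25 and LINC02015 at 0.41. The comparison therefore does not separate differences that arose after the block from those present before it. Those at 0 h were not tested. In siIGF2BP1 cells the lincRNAs that passed the test were mostly lower: 22 of the 99 were lower and 3 higher (edgeR, adjusted p under 0.05), where 34.9% of all genes passed, 16.6% lower and 18.3% higher. The median over the 99 was -0.18 (log2) and 69 lay below 0. On ERCC scaling, which moved the median of all genes by 0.11, 0.17 and 0.23 for siIGF2BP1, siIGF2BP2 and siIGF2BP3, 13 were lower and 3 higher (647 and 3411 of the 13136 genes tested), and each of these 16 was among the 25. Without siControl 3 h replicate 2, 16 passed.

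LINC00205 (chr21:45288035-45297806, plus strand) had the smallest adjusted p of these in siIGF2BP1. It had 22 and 22.6 CPM in siControl at 3 h and 16.7 and 15.1 CPM at 6 h, against 15.2 and 16.6 CPM and 10.9 and 10.6 CPM in siIGF2BP1, so that the libraries of each time point did not overlap. The difference was -0.53 (SE 0.062, edgeR adjusted p 7.7e-09), and its call was kept in each of the 24 fits that left out 1 library. LINC02525 (chr6:3182626-3195784, minus strand), with 9.33 and 9.21 CPM in siControl and 7.58 and 7.25 CPM in siIGF2BP1 at 3 h, and 7.33 and 6.88 against 4.93 and 4.58 CPM at 6 h, was lower by a like amount (-0.46, SE 0.082, adjusted p 2.54e-05). LINC02600 (-0.87, SE 0.22, adjusted p 0.00221), LINC02980 (-0.49, SE 0.14) and LINC01819 (-0.51, SE 0.16) were also lower and kept their calls without any 1 library, although LINC01819 did not pass on ERCC scaling (-0.41, adjusted p 0.0679).

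Of the abundant lincRNAs, LINC02575 (-0.34), LINC03037 (-0.23), LINC00511 (-0.19) and LINC00667 (-0.14) passed the test in siIGF2BP1, and none of these 4 did so on ERCC scaling, where they were at -0.23, -0.12, -0.09 and -0.04. LINC01138 (chr1:148290889-148519604, minus strand), a lincRNA of hepatocellular carcinoma that has been described as bound and stabilized by IGF2BP1 and IGF2BP3, had 1.72 and 1.45 CPM in siControl at 3 h and 1.30 and 1.59 CPM at 6 h. In siIGF2BP1 it had 0.954 and 0.819 CPM at 3 h and 1.14 and 0.588 CPM at 6 h, a log2 difference of -0.79 (SE 0.23, edgeR adjusted p 0.00595), with no overlap at either time. Its call was lost without siIGF2BP1 6 h replicate 2 (-0.59, adjusted p 0.0614). At 0 h LINC01138 was already at -0.46, -0.1 and -0.67 in siIGF2BP1, siIGF2BP2 and siIGF2BP3. Of its 0 h level, 39.5% ± 3.7 was left in siControl at 6 h (SD, n = 2). In the 3 knockdowns 37.4% ± 17.2, 31.0% ± 2.3 and 43.8% ± 3.8 was left, and differences in this share were not tested. Its change between 3 h and 6 h differed from siControl by 0.22, 0.01 and -0.22, none past the test. LINC01004 (-1.42, SE 0.46) rested on 2 to 28 reads per library, and its call was lost without siControl 3 h replicate 2 (-0.77) or siIGF2BP1 6 h replicate 1 (-1.23). LINC02413, just inside the threshold of the rule, was at -0.85 (SE 0.32), and without siControl 3 h replicate 2 at -0.35.

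LINC02015, LINC03073 and LINC02693 were the 3 that were higher in siIGF2BP1. LINC02015 (chr3:177816865-177899224, plus strand) had 5.57 and 5.65 CPM in siControl and 7.29 and 10.4 CPM in siIGF2BP1 at 3 h, and 6.29 and 5.11 against 6.98 and 7.32 CPM at 6 h. The difference was 0.48 (SE 0.11, edgeR adjusted p 0.000823) and was called in each of the 24 fits without 1 library. LINC03073 (0.79, SE 0.30) and LINC02693 (0.23, SE 0.089) lost their calls in 5 and 6 of those fits.

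In siIGF2BP2 cells 6 lincRNAs were higher and 6 lower, where 29.1% of all genes passed, 13.4% higher and 15.7% lower, and the median was -0.01. On ERCC scaling 16 were higher and 0 lower, where 5221 of the 13136 genes tested were higher and 378 lower, and the 6 higher ones were among these 16. Without siIGF2BP2 3 h replicate 1, 6 passed, and without siIGF2BP2 6 h replicate 2, 5 did. LINC02525, lower in siIGF2BP1, was higher here, with 11 and 11.2 CPM at 3 h and 9.24 and 9.21 CPM at 6 h (0.28, SE 0.076, edgeR adjusted p 0.00462). LINC02609 was higher by a like amount, with 20.8 and 21.2 CPM at 3 h and 21.7 and 23.4 CPM at 6 h against 17 and 16.1 CPM and 19.8 and 19 CPM in siControl (0.24, SE 0.0545, adjusted p 0.000625). Both kept their calls without any 1 library.

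LINC01547 (chr21:44932814-44939941, minus strand) gave the largest difference among the lincRNAs called in siIGF2BP2. It had 0.344 and 0.218 CPM in siControl at 3 h and 0.150 and 0.094 CPM at 6 h, against 1.12 and 0.960 CPM at 3 h and 0.149 and 0.309 CPM at 6 h in siIGF2BP2. The libraries were apart at 3 h and overlapped at 6 h, where siControl had 5 and 9 reads. The difference was 1.39 (SE 0.36, edgeR adjusted p 0.00251), and was no longer called without siIGF2BP2 6 h replicate 2 (1.05, adjusted p 0.112). LINC00958, a lincRNA described in bladder and liver cancer, was at 12.3 and 12 CPM against 11 and 10.5 CPM at 3 h and 9.62 and 11.6 against 7.17 and 8.59 CPM at 6 h (0.27, SE 0.077, adjusted p 0.007). Its call was lost without siControl 6 h replicate 1 (0.20) or siIGF2BP2 6 h replicate 2 (0.19). LINC02365 (0.39) and LINC01521 (0.54), both higher, lost their calls in 5 and 18 of the 24 fits without 1 library. The lower LINC01004 (-1.12), LINC00674 (-0.36) and LINC02980 (-0.35) lost them in 6, 2 and 6.

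In siIGF2BP3 cells 5 lincRNAs were higher and 3 lower, where 28.8% of all genes passed, 14% higher and 14.8% lower, and the median was 0.01. On ERCC scaling 27 were higher and 0 lower, where 7154 of the 13136 genes tested were higher and 171 lower, and the 5 higher ones were among these 27. Without siControl 3 h replicate 1, siControl 3 h replicate 2 or siIGF2BP3 6 h replicate 2, the number that passed was 5, 4 and 5. LINC00668 (chr18:6919496-6929966, minus strand), described as an oncogenic lincRNA, had 7.56 and 6.5 CPM in siControl and 9.94 and 9.29 CPM in siIGF2BP3 at 3 h, and 7.07 and 7.05 against 9.52 and 8.86 CPM at 6 h. The groups were apart at both times (0.39, SE 0.097, edgeR adjusted p 0.00191), and the call was kept in each of the 24 fits without 1 library. LINC00641 was at 6.64 and 7.33 against 5.30 and 4.52 CPM at 3 h and 6.61 and 7.82 against 6.10 and 5.67 CPM at 6 h (0.37, SE 0.11, adjusted p 0.00729), and was not called without siControl 3 h replicate 2 (0.31) or siIGF2BP3 6 h replicate 2 (0.30).

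LINC01547 was higher in siIGF2BP3 as it was in siIGF2BP2 (1.06, SE 0.37, edgeR adjusted p 0.0259), with 0.448 and 0.426 CPM at 3 h and 0.478 and 0.220 CPM at 6 h, and lost its call in 4 of the 24 fits. LINC03073 (0.89, SE 0.30) and LINC01515 (0.45, SE 0.16) were the other two that were higher, with calls lost in 2 and 6 fits. The 3 lower ones were LINC02972 (-0.41, SE 0.15), LINC00205 (-0.26, SE 0.061) and LINC00963 (-0.22, SE 0.077), of which LINC00205 kept its call in every fit without 1 library. On ERCC scaling LINC00205 was at -0.04 and LINC00963 at 0.01.

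**Figure D4:**
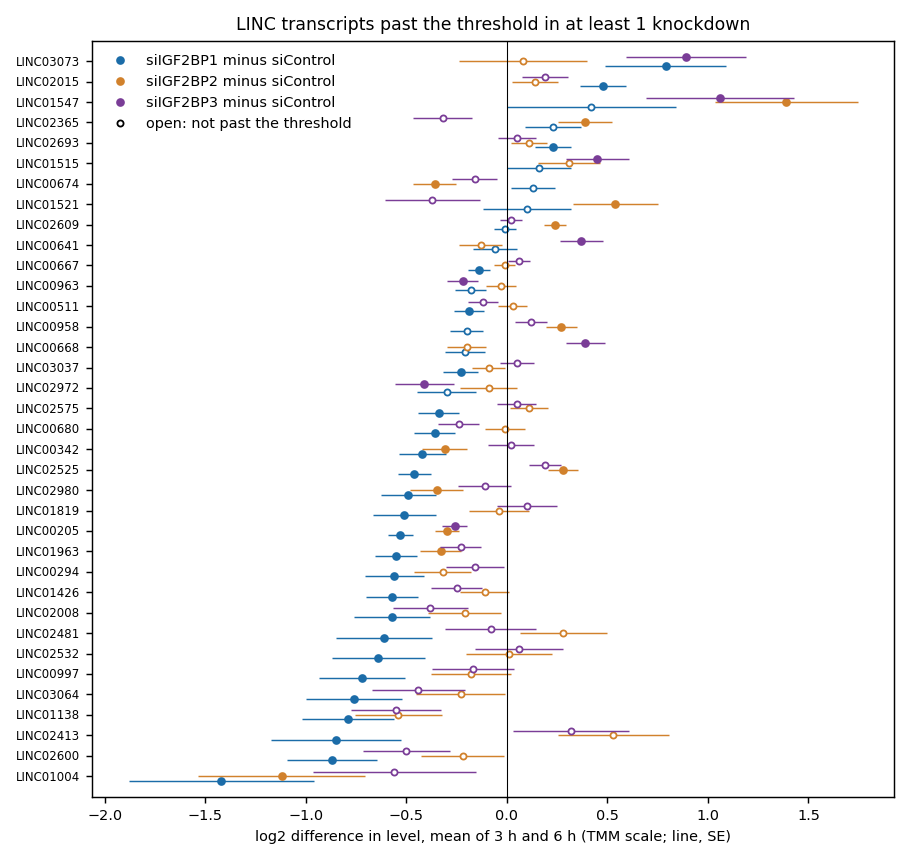
Log2 difference from siControl in the mean level of 3 h and 6 h on TMM scaling (horizontal axis; lines, SE) for the 36 lincRNAs that passed the test in at least 1 knockdown (filled points, adjusted p under 0.05; open points, not past it). Most of the filled points of siIGF2BP1 lie left of 0 (22 of 25), whereas those of siIGF2BP2 are split 6 and 6. Of all genes tested, 16.6% were lower and 18.3% higher in siIGF2BP1, and 15.7% and 13.4% in siIGF2BP2.

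Set side by side, 36 lincRNAs passed in at least 1 knockdown, 63 in none and 1, LINC00205, in each of the 3. The same shares over all genes are not given here. In siIGF2BP1, siIGF2BP2 and siIGF2BP3 taken singly, 34.9%, 29.1% and 28.8% of all genes passed, so the 36 are not read as a result about lincRNAs. LINC00205 differed from siControl by -0.53 in siIGF2BP1, -0.30 (SE 0.060, edgeR adjusted p 0.000145) in siIGF2BP2 and -0.26 in siIGF2BP3, and the call in siIGF2BP1 was the one of these that also held on ERCC scaling (-0.43, adjusted p 2.39e-06). Its loss over 6 h was alike in the 4 conditions, with 31.8% ± 3.8, 30.7% ± 0.7, 33.8% ± 0.3 and 35.7% ± 2.0 left in siControl, siIGF2BP1, siIGF2BP2 and siIGF2BP3 (SD, n = 2). LINC02525 was at -0.46, 0.28 and 0.19 in the 3 knockdowns, and LINC01138 at -0.79, -0.54 and -0.55, the last pair with adjusted p of 0.0565 and 0.0629.

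**Figure D5:**
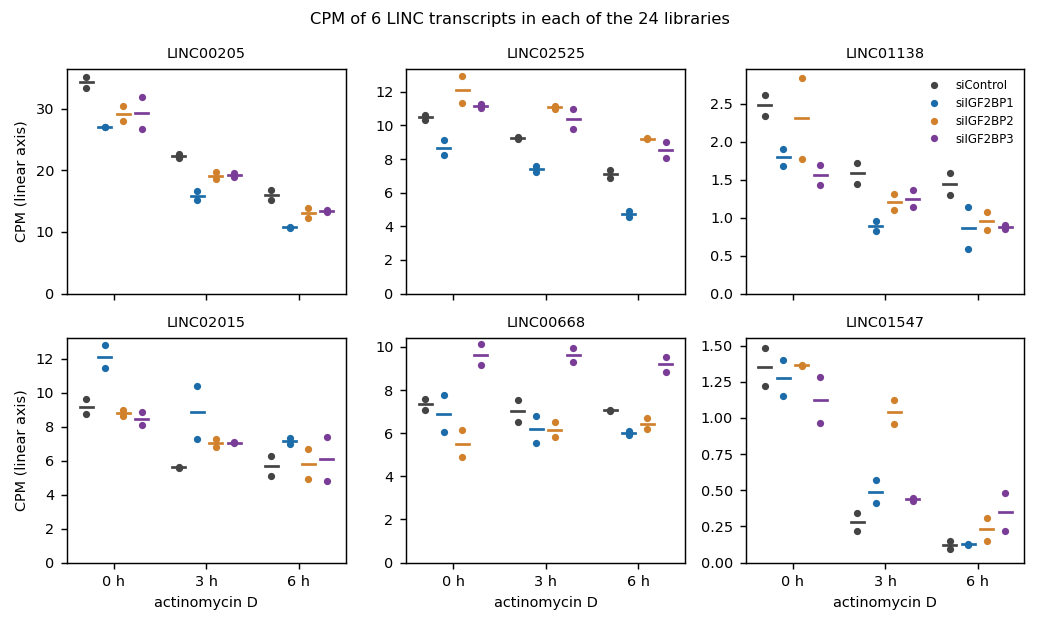
CPM (linear axis) of 6 lincRNAs at 0, 3 and 6 h of actinomycin D in each library (points) with the mean of 2 replicates (bars), by siRNA. LINC00205 and LINC02525 were lowest in siIGF2BP1 at 3 h and 6 h, LINC02015 highest there at 0 h and 3 h, and LINC00668 was highest in siIGF2BP3 at each time.

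Before the drug took effect, levels were compared between knockdowns, so that no siControl library enters the contrast. Between siIGF2BP2 and siIGF2BP1, 7 lincRNAs were higher and 1 lower (edgeR, adjusted p under 0.05), where 18.7% of all genes passed, 9.04% higher and 9.65% lower. LINC00958 was at 14 and 14.4 CPM in siIGF2BP1 and 19.7 and 20.4 CPM in siIGF2BP2, and LINC02015 at 11.4 and 12.8 against 9 and 8.6 CPM, with both pairs apart. Between siIGF2BP3 and siIGF2BP1, 4 were higher and 1 lower (14.3% of all genes, 6% and 8.31%). Between siIGF2BP3 and siIGF2BP2, 1 was higher and 3 were lower (9.19% of all genes, 4.28% and 4.91%). The one that was higher, LINC00668, had 4.88 and 6.16 CPM in siIGF2BP2 and 9.15 and 10.1 CPM in siIGF2BP3 (0.80, SE 0.14, adjusted p 5.26e-05), and was called in each of the 24 fits without 1 library.

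The numbers of these 0 h calls were small and moved with single libraries. From 8 between siIGF2BP2 and siIGF2BP1 they went to 3 without siIGF2BP2 0 h replicate 1 and to 5 without siIGF2BP2 0 h replicate 2 or siIGF2BP1 0 h replicate 2. From 5 between siIGF2BP3 and siIGF2BP1 they went to 1 without siIGF2BP1 0 h replicate 1, siIGF2BP1 0 h replicate 2 or siIGF2BP3 0 h replicate 2, and to 3 without siIGF2BP3 0 h replicate 1. From 4 between siIGF2BP3 and siIGF2BP2 they went to 1 without siIGF2BP2 0 h replicate 1 and to 2 without siIGF2BP2 0 h replicate 2 or siIGF2BP3 0 h replicate 1. On ERCC scaling, which moved the median of all genes by 0.12, 0.11 and -0.01, the calls in the same order were 9 higher and 0 lower, 5 higher and 0 lower, and 1 higher and 1 lower, where 1347 and 238, 777 and 98, and 191 and 191 of the 13136 genes tested were.

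Of 18 lincRNAs listed for their description in liver or liver cancer, 6 were among the 99 (LINC00205, LINC00511, LINC00958, LINC00662, LINC00467 and LINC01138), 10 were below the threshold and 2 had no row. Among the 10, LINC01134 was at 0.930 CPM in siControl at 0 h and LINC00261, an endodermal lincRNA next to FOXA2, at 0.152 CPM. LINC00662 fell by 0.97 (SE 0.092) over 6 h in the knockdowns, and at 3 h and 6 h differed from siControl by 0.04, 0.04 and 0.16 in siIGF2BP1, siIGF2BP2 and siIGF2BP3, none of which passed the test. Over the 6, slopes ran from LINC00511 (-2.22) to LINC00467 (0.02), with LINC00205 (-1.59), LINC01138 (-1.45), LINC00958 (-1.34) and LINC00662 between, and 5 of the 6 fell.

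Of the 7 lincRNAs that share a start region with a protein-coding gene, LINC00205 begins 137 bp from POFUT2, an O-fucosyltransferase gene, and LINC01547 84 bp from SLX9. While LINC00205 was lower in each knockdown, POFUT2 was at -0.01, 0.02 and -0.16 in siIGF2BP1, siIGF2BP2 and siIGF2BP3, of which the last passed (edgeR adjusted p 0.0129). SLX9 was at 0.09, 0.00 and -0.07, none past the test, beside 0.42, 1.39 and 1.06 for LINC01547. For LINC01124 (0.24, 0.35 and 0.05, none past the test) the partner SP5, a zinc-finger transcription factor of the Wnt pathway, was lower in siIGF2BP1 (-0.37, adjusted p 3.44e-05) and higher in siIGF2BP2 (0.17, adjusted p 0.0264). Of the other partners SETD1B, ZNF41, PATZ1 and AIG1, the last passed the test in siIGF2BP2 (-0.12, adjusted p 0.00428), where its lincRNA LINC01277 was at 0.07.

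Features of the transcripts went only weakly with the slope over 6 h across the 94 lincRNAs with a lncRNA record, which share the same libraries and differ in depth. Spearman's rho was 0.19 for the number of exons, -0.19 for GC content, -0.11 for transcript length, -0.09 for TGGAC words and -0.04 for ATTTA words per kb, and -0.08 for the level at 0 h. The 17 single-exon lincRNAs had a median slope of -1.42 (quartiles -2.06 and -0.97) and the 77 with more exons one of -0.97 (quartiles -1.68 and -0.58). With a hexamer near the end the median was -1.12 (n = 56) and without one -0.85 (n = 38), and the quartiles of these groups overlapped widely. The 38 lincRNAs that overlap no other gene had a median of -0.99, and the 56 that do had -1.12.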

How the data were processed

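The deposited values were raw read counts per gene (unit counts, not normalized) of 24 poly(A)-enriched HepG2 libraries with ERCC synthetic RNA. Per the methods and the submitters' processing notes, the authors trimmed reads with Trimmomatic 0.39, aligned them to hg38 with HISAT2 2.1.0 and counted them with HTSeq on an earlier GENCODE release than the v44 annotation used here for positions. Summary rows (13.551% to 17.064% of a library) and 45 Y copies of pseudoautosomal genes were left out, and 469 identifiers had no symbol. From the counts, genes with at least 1 CPM in at least 2 libraries were kept (13136, all 99 lincRNAs among them). edgeR 4.0.16 (R 4.3.3) quasi-likelihood tests were two-sided, with Benjamini-Hochberg adjustment over the 13136 genes and a threshold of 0.05. Slopes were fitted with 1 intercept and 1 slope for each siRNA on the ERCC scale (16 residual degrees of freedom). Late loss (ERCC) and levels (TMM) were fitted with 1 mean for each of the 12 groups (12 residual degrees of freedom), over all 24 libraries. Because siControl at 0 h chose the members, no contrast with those libraries was tested. The smallest replicate correlation was 0.9895, and each replicate pair differed beyond counting noise, with a chi-square of 3.17 to 7.83 times its degrees of freedom. Spike-in was added per amount of total RNA, so cell number and RNA recovery are not corrected, and PCR duplicates were not removed. 

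The members, the lists and the tests were chosen with earlier results of these data known. Named lincRNAs were the 12 with the highest siControl level at 0 h, the 5 steepest in decay (none was called upward) and the 3 nearest to 0 among those not called, all called lincRNAs of another comparison if 6 or fewer and otherwise the 3 lowest and 3 highest, the 3 on each side of the threshold, and members of a liver list of 18. Others called were named where they bore on these, after their values were seen. Alternatives were ERCC or TMM scaling, other count filters, the 0 h to 6 h change alone, restricted fits, DESeq2 1.42.0, a replicate block, members chosen in the 6 knockdown libraries at 0 h, and fits without each library. The tests were tested on simulated counts. Positions and 3′ ends were computed with Python 3.11.15, and 1 of the 3′ ends is not reported here.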

Additional observations from a re-analysis of the deposited data

Results flagged for a closer look

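At 0 h the change against siControl differed between knockdowns for 17 values of 12 lincRNAs, by edgeR's test of 1 knockdown against another (adjusted p under 0.05), in which the shared siControl drops out. The values are log2 differences. In siIGF2BP2 against siIGF2BP1, LINC02413 differed by 1.42, LINC02532 by 0.88, LINC01819 by 0.59, LINC00958 by 0.49, LINC00467 by 0.47, LINC02525 by 0.46, LINC02575 by 0.42 and LINC02015 by -0.47. In siIGF2BP3 against siIGF2BP1, LINC00641 differed by 0.50, LINC00668 by 0.48, LINC02525 by 0.34, LINC00958 by 0.32 and LINC02015 by -0.52. In siIGF2BP3 against siIGF2BP2, LINC00668 differed by 0.80, LINC00467 by -0.42, LINC02365 by -0.53 and LINC00857 by -1.02. Of these, the values of LINC02532 rest on 21 to 97 reads per library, those of LINC02413 on 25 to 101 and those of LINC00857 on 47 to 178. LINC02413 lost its call without siIGF2BP1 0 h replicate 1 (0.84) or siIGF2BP2 0 h replicate 1 (1.16), and LINC00857 without siIGF2BP2 0 h replicate 1 (-1.01) or siIGF2BP3 0 h replicate 2 (-0.87).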

How the results depend on the processing

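Pooled loss was called for 69 to 84 lincRNAs under the alternatives run (69 of the 82 that reach 1 CPM in 12 libraries), for 81 to 84 without 1 library, and all of these calls were falls except 18 of the 72 on TMM scaling. TMM scaling gave 20 late calls in siControl (15 falls), and lifetimes of 7.53, 7.25, 7.49 and 7.11 h in siControl, siIGF2BP1, siIGF2BP2 and siIGF2BP3. Rates from 0 h to 6 h alone gave 5.22, 5.47 and 5.79 h in the 3 knockdowns. ERCC scaling gave 16 level calls in siIGF2BP1, 27 in siIGF2BP3 and 2 at 0 h between siIGF2BP3 and siIGF2BP2. With no filter on low counts, where 33509 genes were tested, 2 were called at 0 h between siIGF2BP3 and siIGF2BP1 and 2 between siIGF2BP3 and siIGF2BP2. Without 1 library, the range was 27 to 40 for the late loss, 0 to 4 for its difference in siIGF2BP2, 16 to 28, 5 to 12 and 4 to 10 for the levels in siIGF2BP1, siIGF2BP2 and siIGF2BP3, and 3 to 9, 1 to 6 and 1 to 4 for the 0 h pairs in the order of the text. TMM scaling turned the slopes of LINC02802 (0.67), LINC01002 (0.63), LINC00888 (0.41), LINC00674 (0.40), LINC00668 (0.28), LINC02532 (0.25) and LINC02972 (0.05) upward, and ERCC scaling put LINC00963 in siIGF2BP3 at 0.01. Without 1 library the slopes nearest to 0 changed sign, from -0.12 to 0.17 for LINC02802, -0.02 to 0.07 for LINC00467 and -0.12 to 0.06 for LINC01002. Replicate numbers did not pair the libraries (correlations of -0.043 to 0.075 over 66 pairs of groups, none over 0.1). With the replicate block 83 lincRNAs passed for loss and 26, 11 and 8 for levels, and LINC02802 was at 0.01. Lifetimes ran over 3.71 to 4.89 h in siControl, 4.63 to 5.04 h in siIGF2BP1, 4.28 to 5.11 h in siIGF2BP2 and 4.51 to 5.13 h in siIGF2BP3.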
